A study of Mus musculus with 4 samples.

Results

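The genes described here encode collagens and the other main proteins of the extracellular matrix in mouse liver. They are 36 genes chosen by symbol for their role in building, cross-linking or turning over the matrix, and each was found on the array by an exact match of the gene name given for the probe. The array measured 30026 genes in all. The 36 genes were read by 49 probes, 1 probe for 26 of them and several for 10. Of the 36, 34 were well above background on all 4 arrays, and Col15a1 and Lox were not.

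The series compared livers of mice lacking Pnpla7, which encodes a lysophospholipase, with wild-type livers at 3 and 6 weeks of age. Each array held pooled RNA from the livers of 5 C57BL/6N animals, and each group had 1 array. The groups were Pnpla7-/- (KO) at 6 weeks, Pnpla7+/+ (WT) at 6 weeks, KO at 3 weeks and WT at 3 weeks. No treatment was labelled. The sex of the animals, the time of day of collection and the way the Pnpla7 allele was made are not given in the sources used here. With 1 array of a pool per group, no difference between a pair of arrays could be set against the spread between animals. Signals below are processed intensities divided by the array's 75th percentile, so that 1 marks that percentile. They are compared between arrays for the same probe. Sums over a marker list are also compared between arrays, and the brighter probes weigh most in them. Signals of different genes are not read as relative amounts of RNA. Ratios are log2, with KO over WT or 6 over 3 weeks, and a gene was counted as higher or lower at 2-fold or more.

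On every array all 12 hepatocyte markers examined were well above background. The only Pnpla7 probe had a signal of 4.42 in KO at 6 weeks and 9.65 in WT at 6 weeks, and of 6.7 in KO at 3 weeks and 7.54 in WT at 3 weeks. Its log2 ratio was -1.13 at 6 weeks and -0.17 at 3 weeks, and whether the probe lies in the deleted part is not stated, so it does not check the labels at 3 weeks. Skeletal muscle markers stood apart on both KO arrays, with a summed signal of 53.3 in KO and 2.94 in WT at 6 weeks and of 79.8 in KO and 2.15 in WT at 3 weeks. Of 20 such markers 19 were at least 2-fold higher in KO at each age, against 6.49% of all genes at 6 weeks and 2.86% at 3 weeks. All 4 arrays were on 1 slide, so the position on the slide and the group cannot be told apart.

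The matrix of the liver is a thin scaffold in which fibrillar collagens form the cables of portal tracts and vessel walls, a loose basement membrane lines the sinusoids, and glycoproteins, proteoglycans and elastic fibres connect them. Stellate cells and portal fibroblasts are the main producers of fibrillar collagen, endothelial cells contribute basement membrane, and hepatocytes secrete fibronectin and collagen XVIII. Lysyl oxidases cross-link the fibres, matrix metalloproteinases and their tissue inhibitors turn them over, and TGF-beta is the best known inducer of the whole programme.

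Age separated the arrays for most of these genes. In KO livers 24 of 36 genes were at least 2-fold lower at 6 than at 3 weeks and 0 were higher, where 6.26% of 21971 genes were lower and 6.54% higher. In WT livers 14 of 36 were at least 2-fold lower and 0 higher, against 5.85% and 3.64% of 21169 genes. The median log2 ratio of 6 over 3 weeks was -1.44 in KO and -0.86 in WT, while the medians over all genes compared were 0.05 and 0.01. In KO 33 of 36 genes had a ratio below 0 and 2 above, against 44.0% and 54.7% of all genes, and in WT 33 were below and 3 above, against 48.4% and 50.7%. At 1.5-fold 26 were lower and 0 higher in KO, where 13.0% and 13.4% of all genes were, and 23 were lower and 0 higher in WT, where 10.8% and 8.19% were.

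All 14 genes that were at least 2-fold lower with age in WT were so in KO too, and 1.56% of the 18871 genes well above background on all 4 arrays shared that property. They were Col1a1, Col1a2, Col3a1, Col4a1, Col4a2, Col5a1, Col5a2, Col6a2, Col6a3, Eln, Loxl2, Mmp2, Postn and Thbs2. Col6a2 is listed by its brightest probe, and its other probe was not past 2-fold, at -0.35 in WT and -0.3 in KO. With the mean of all probes the WT count was 13 in place of 14. Both 6-week signals lay below both 3-week signals for 28 of the 34 genes well above background throughout, compared with 22.9% of all such genes. The exceptions were Col14a1, Col18a1, Ctgf, Dcn, Fn1 and Timp3, and of these Col18a1 was the gene with both 6-week signals above both 3-week signals, an order found for 30.4% of all genes.

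**Figure D1:**
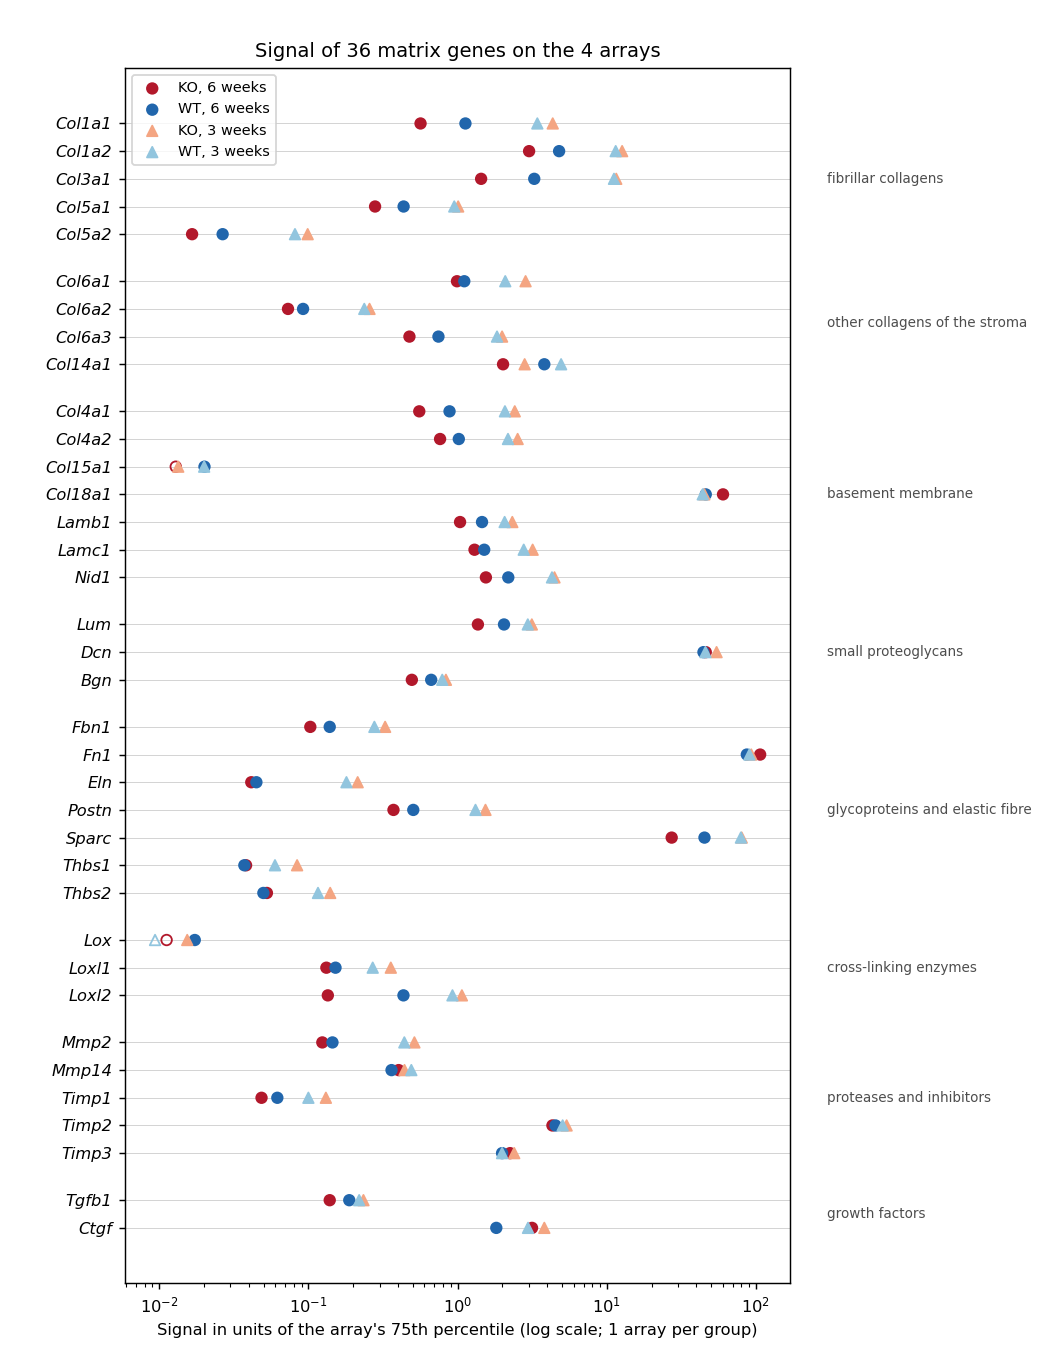
Signal of each matrix gene on each array, divided by the 75th percentile of that array, on a log axis, with 1 point per array and hollow points where the probe was not well above background. Points are to be compared within a row, and for 28 genes the 2 circles of 6 weeks lie left of the 2 triangles of 3 weeks.

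The ratios between the genotypes were smaller than those between the ages and mostly had opposite signs at 6 and 3 weeks. At 6 weeks 3 of 36 genes, Col1a1, Col3a1 and Loxl2, were at least 2-fold lower in KO than in WT and 0 were higher, where 4.54% of 21386 genes were lower and 6.49% higher. At 3 weeks 0 of 36 were past 2-fold in either direction, against 2.86% of 21758 genes higher and 3.06% lower. The median log2 ratio of KO over WT was -0.42 at 6 weeks and 0.19 at 3 weeks, and over all genes 0.05 and 0.0.

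The sign of the KO over WT ratio was below 0 for 28 of 36 genes at 6 weeks and above 0 for 33 of 36 at 3 weeks. Of all genes 44.3% were below 0 and 55.5% above at 6 weeks, and 48.0% below and 49.1% above at 3 weeks. At a threshold of 1.5-fold, 10 of 36 were lower and 1 higher in KO at 6 weeks, where 10.4% and 12.4% of all genes were, and at 3 weeks 1 was lower and 0 higher, where 5.48% and 5.05% were. Single ratios at 3 weeks ran between -0.81 and 0.49, and the scanner's error model gave each measured member ratio an error of 0.2 to 0.37. Many 3-week ratios lay within their own error, such as Sparc, at 0.02, and Col3a1, at 0.05. Others were Bgn, Col1a2, Col5a1, Col6a2, Col6a3, Col18a1, Fn1, Lamb1, Lum, Mmp14, Nid1, Tgfb1 and Timp2. The count above 0 at 3 weeks thus rests in part on signs within this error. Under median scaling the 3-week count above 0 was 31, with Sparc below 0, and under quantile normalization it was also 31, with Fn1 below 0. The 6-week count moved too, to 25 below 0 and 10 above with the mean of all probes. Under quantile normalization it was 31 below and 5 above. Ratios within their error at 6 weeks included those of Col6a1, Eln and Timp2.

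For 25 of 34 genes the 4 arrays stood in 1 order, with KO at 3 weeks highest, then WT at 3 weeks, then WT at 6 weeks, and KO at 6 weeks lowest. That order held for 6.75% of all 18871 genes. For many of the 25, among them Col3a1, Sparc and Lum, the 3-week step between KO and WT lay within the error of the ratio. For Col6a1, Eln and Timp2 the 6-week step did. KO at 6 weeks was the lowest array for 26 of 34 genes (27.2% of all genes) and KO at 3 weeks the highest for 30 (18.8%). The KO over WT ratio was lower at 6 than at 3 weeks for 30 of 34 genes (43.0%), with a median difference of -0.58, where the median over all genes was 0.06. For 3 genes, Col1a1, Col3a1 and Loxl2, it was at least 2-fold lower at 6 weeks (3.46% of all genes), and for 0 at least 2-fold higher (4.08%). The 4 genes on the other side were Col18a1, Ctgf, Fn1 and Mmp14. These counts all rest on the same 4 arrays, and the difference between the ages was not tested, because 1 array per group leaves no spread to test it against.

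**Figure D2:**
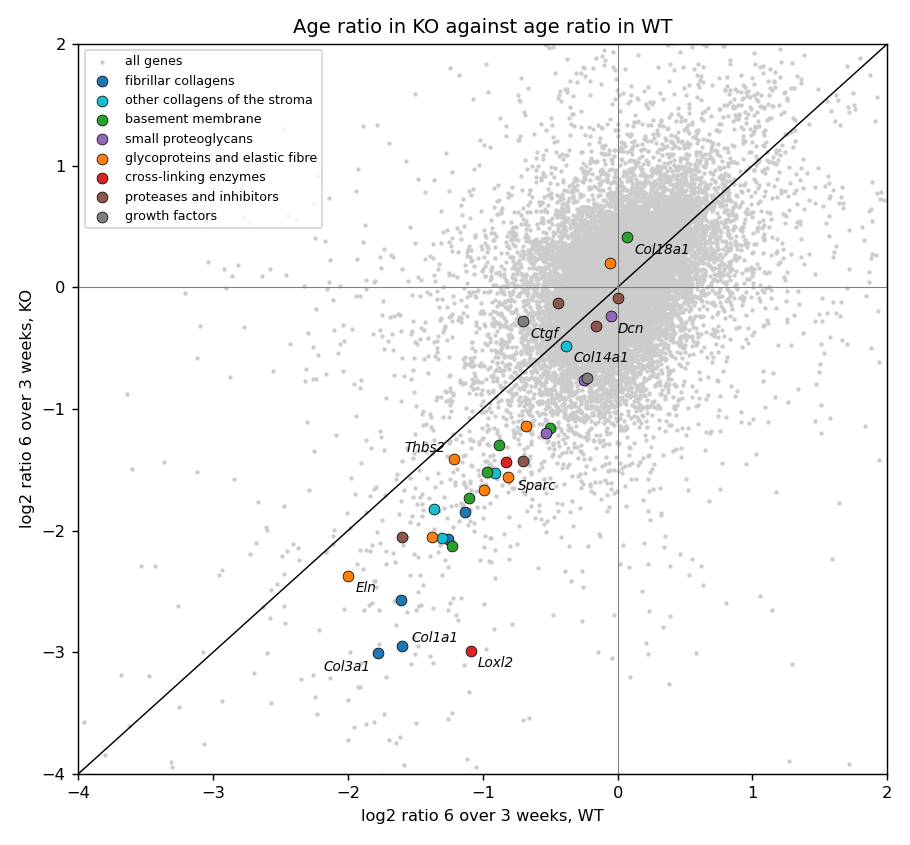
Log2 ratio of 6 over 3 weeks in KO (vertical axis) against the same ratio in WT (horizontal axis) for the 34 matrix genes, coloured by role, over all genes well above background on the 4 arrays in grey, with genes beyond the axes not drawn. Points below the diagonal had a lower age ratio in KO than in WT, and 30 of the 34 genes lie there, Loxl2 farthest from it.

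Across the 34 genes the age ratio in KO and the age ratio in WT, which share no array, had a Pearson correlation of 0.90 and a Spearman correlation of 0.92, against 0.46 and 0.43 across all 18871 genes. This is a description across genes measured on the same slide, not across replicates. Lower RNA per cell and fewer cells of the types that make matrix cannot be told apart in RNA of whole liver.

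The fibrillar collagens were the group with the widest age ratios. All 5 genes were at least 2-fold lower at 6 than at 3 weeks in both genotypes, with a median log2 ratio of -2.57 in KO and -1.6 in WT. At 6 weeks their median KO over WT ratio was -0.68, with 2 of 5 past 2-fold, and at 3 weeks it was 0.15 with 0 of 5.

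Col1a1, the alpha 1 chain of type I collagen, had a signal of 0.565 in KO and 1.13 in WT at 6 weeks and of 4.35 in KO and 3.43 in WT at 3 weeks. The KO array was the lower of the pair at 6 weeks, by a log2 ratio of -1.0, which sits on the 2-fold threshold, and the higher at 3 weeks, by 0.34. Between the ages its signal was 7.70-fold lower at 6 weeks in KO and 3.03-fold lower in WT. Col1a2, which encodes the partner alpha 2 chain, had signals of 3.02 in KO and 4.8 in WT at 6 weeks and of 12.7 in KO and 11.5 in WT at 3 weeks. Both chains of type I collagen thus had the same order of arrays, with ratios of KO over WT of -0.67 at 6 weeks and 0.15 at 3 weeks for Col1a2.

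Col3a1, the only chain of type III collagen, had a signal of 1.44 in KO and 3.27 in WT at 6 weeks, and of 11.6 in KO and 11.2 in WT at 3 weeks. The 3-week arrays were within 1.03-fold of each other, while at 6 weeks the KO array was 2.27-fold lower. The age ratio of Col3a1 was -3.01 in KO and -1.78 in WT, the lowest among the 36 genes in KO. Type V collagen, a minor component that starts fibril assembly, was read through Col5a1, with signals of 0.28 in KO and 0.435 in WT at 6 weeks and of 1.01 in KO and 0.951 in WT at 3 weeks. Its second chain gene, Col5a2, had 0.0166 in KO and 0.0266 in WT at 6 weeks and 0.0989 in KO and 0.0813 in WT at 3 weeks. The Col5a2 probe was dim at 6 weeks, and the error of its KO over WT ratio of -0.68 was 0.37, the largest among the measured ratios of the 36 genes. Col3a1 and Col5a2 are neighbours on chromosome 1 with 0 protein-coding genes between them in RefSeq.

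Sequences upstream of the start site are shown for 3 genes that were lower at 6 weeks, Col1a2, Col3a1 and Sparc, and for Timp3, whose signal hardly differed with age. Each is the 250 bases before the start in RefSeq's annotation of GRCm38.p6, 5′ to 3′ on the gene's strand, with capitals marking any GGGCGG (an Sp1-type GC box), CCAAT or TATAAA found on either strand. The windows are chr6:4505368-4505617 (plus strand) for Col1a2, chr1:45311288-45311537 (plus) for Col3a1, chr11:55420081-55420330 (minus) for Sparc and chr10:86300162-86300411 (plus) for Timp3.
Col1a2: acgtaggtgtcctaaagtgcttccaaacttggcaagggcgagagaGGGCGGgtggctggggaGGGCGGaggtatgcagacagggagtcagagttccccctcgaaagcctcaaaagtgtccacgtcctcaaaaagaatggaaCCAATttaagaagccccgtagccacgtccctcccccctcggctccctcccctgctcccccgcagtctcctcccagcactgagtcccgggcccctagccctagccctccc
Col3a1: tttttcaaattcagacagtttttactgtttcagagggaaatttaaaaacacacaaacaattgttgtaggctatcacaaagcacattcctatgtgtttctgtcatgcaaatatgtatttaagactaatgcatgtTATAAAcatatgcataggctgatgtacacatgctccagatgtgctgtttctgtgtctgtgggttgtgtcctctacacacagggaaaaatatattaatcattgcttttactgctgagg
Sparc: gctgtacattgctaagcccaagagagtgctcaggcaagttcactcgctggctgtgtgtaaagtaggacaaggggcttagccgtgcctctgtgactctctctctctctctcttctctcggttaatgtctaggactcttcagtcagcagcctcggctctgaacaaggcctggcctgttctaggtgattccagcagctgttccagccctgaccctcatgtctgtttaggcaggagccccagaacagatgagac
Timp3: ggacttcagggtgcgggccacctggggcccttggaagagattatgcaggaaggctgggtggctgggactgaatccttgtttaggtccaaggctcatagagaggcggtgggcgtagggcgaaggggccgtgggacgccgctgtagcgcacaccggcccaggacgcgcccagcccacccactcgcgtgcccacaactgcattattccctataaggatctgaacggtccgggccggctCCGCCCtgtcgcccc
The Col1a2 window held 2 GGGCGG and 1 CCAAT, the Col3a1 window 1 TATAAA and no GC box, the Sparc window none of the 3 motifs, and the Timp3 window 1 GC box on the opposite strand. Genes with the same order of arrays therefore did not share these letters in this window. Upstream windows were available for 22 of the 36 genes, 25 windows in all, and GGGCGG on either strand was in 60.0% of them against 32.7% of all 32851 windows of that length. CCAAT was in 40.0% against 33.8%, and TATAAA was in 3 of 25 windows, close to its 12.4% of all windows. A match describes the letters and is no evidence that a factor binds there.

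Among the other stromal collagens, the chains of type VI collagen, which form beaded microfibrils around cells, had the array order of the fibrillar collagens. Col6a3 had signals of 0.476 in KO and 0.745 in WT at 6 weeks and of 1.99 in KO and 1.84 in WT at 3 weeks, a KO over WT ratio of -0.65 and of 0.12. Col6a1 had 0.992 in KO and 1.11 in WT at 6 weeks and 2.86 in KO and 2.09 in WT at 3 weeks, so that its wider genotype ratio, 0.45, was at 3 weeks. For Col6a2 the signals were 0.073 in KO and 0.0921 in WT at 6 weeks, and 0.257 in KO and 0.237 in WT at 3 weeks. All 3 chains were lower at 6 weeks in both genotypes, with age ratios of -1.53, -1.82 and -2.06 in KO for Col6a1, Col6a2 and Col6a3. A dimmer probe of another Col6a2 transcript had ratios of 0.62 and 0.57 for KO over WT at 6 and 3 weeks, so the Col6a2 probes differed in sign at 6 weeks. The age ratios of that dimmer probe were -0.3 in KO and -0.35 in WT, so the probes differed in size with age. Col6a1 and Col6a2 are neighbours on chromosome 10.

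Col14a1, a collagen that coats fibrils rather than forming them, had a pattern of its own. Its signal was 2.02 in KO and 3.82 in WT at 6 weeks, and 2.82 in KO and 4.95 in WT at 3 weeks. KO was the lower array at both ages, by log2 ratios of -0.92 and -0.81, the order found for 24.4% of all genes and for no other gene among the 34. The age ratio of Col14a1 was -0.48 in KO and -0.38 in WT, well above the medians of the 36 genes. In limma's fit over the 4 arrays its KO over WT ratio was -0.87 with a standard error of 0.147 and an adjusted p of 0.914.

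The lower Col14a1 signal in KO at 6 weeks was also seen with the gene's other probe, which is shown because it lies in a collagen repeat and makes the family's sequence signature visible. It covers chr15:55347733-55347792 on the plus strand of mm9. GGN are the codons for glycine, which recurs at regular steps along a collagen helix. The reading frame was chosen as the frame with the most GGN and was not taken from an annotation. Capitals mark the 7 GGN codons among the 20 codons of that frame.
Col14a1: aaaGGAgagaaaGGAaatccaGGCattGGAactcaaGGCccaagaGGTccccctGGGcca
This probe had signals of 0.225 in KO and 0.415 in WT at 6 weeks and of 0.435 in KO and 0.523 in WT at 3 weeks. Its KO over WT ratios were -0.88 and -0.27, so the probes were close at 6 weeks and apart at 3 weeks.

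Of the basement membrane genes, all but Col15a1 and Col18a1 were lower at 6 weeks in both genotypes. Of 7 genes, 5 were at least 2-fold lower with age in KO and 2 in WT, with medians of -1.3 and -0.88. Their median KO over WT ratio was -0.49 at 6 weeks and 0.17 at 3 weeks, and none of the 7 was past 2-fold between the genotypes.

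The probe for Col4a1, which encodes the alpha 1 chain of the type IV network, was printed 10 times on each array, so its spread within an array is known. It averaged 0.555 ± 0.0347 in KO and 0.884 ± 0.0307 in WT at 6 weeks, and 2.42 ± 0.105 in KO and 2.08 ± 0.101 in WT at 3 weeks (SD over 10 spots). At 6 weeks the spots ran between 0.495 and 0.597 in KO and between 0.838 and 0.939 in WT. At 3 weeks the lowest KO spot was 2.28 and the highest WT spot 2.21. How many of all repeated probes had such ranges was not counted. The Tgfb1 spots, also 10 per array, overlapped at 3 weeks, at 0.215 to 0.259 in KO and 0.21 to 0.232 in WT. The spots of a probe share 1 RNA pool per array, and their spread says nothing about animals. Col4a2, the partner chain, had 0.764 in KO and 1.02 in WT at 6 weeks and 2.53 in KO and 2.18 in WT at 3 weeks. Col4a1 and Col4a2 are transcribed from adjacent starts on opposite strands of chromosome 8, and their arrays stood in the same order.

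Laminin chains and nidogen had ratios of the same signs. Lamb1, the laminin beta 1 chain, had a signal of 1.04 in KO and 1.46 in WT at 6 weeks and of 2.33 in KO and 2.07 in WT at 3 weeks. Lamc1, the gamma 1 chain found in most laminins, had 1.3 in KO and 1.51 in WT at 6 weeks and 3.19 in KO and 2.78 in WT at 3 weeks. Nid1, which bridges laminin and type IV collagen, had 1.55 in KO and 2.19 in WT at 6 weeks and 4.47 in KO and 4.3 in WT at 3 weeks. All 3 were lowest in KO at 6 weeks, with KO over WT ratios of -0.49, -0.21 and -0.50. Of the other probes for Nid1, 1 gave -0.61 and 1 gave 0.29 at 6 weeks.

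Col18a1, whose protein carries endostatin at its end and is made by hepatocytes, ran the other way. Its signal was 60.3 in KO and 46.2 in WT at 6 weeks and 45.2 in KO and 44.1 in WT at 3 weeks. The KO array at 6 weeks stood above the other 3, by a log2 ratio of 0.38 over WT at that age, and the gene's other probe also gave 0.38. For the probe used, that ratio was 0.17 under quantile normalization and 0.15 after normexp background correction. Col15a1, the related chain of the outer basement membrane, was near the detection limit, with 0.0129 in KO, not well above background, and 0.0201 in WT at 6 weeks, and 0.0134 in KO and 0.02 in WT at 3 weeks. It was at least 1.49-fold lower in KO at 6 weeks, a bound, and 1.49-fold lower at 3 weeks. A further Col15a1 probe was well above background only in KO at 6 weeks, at 0.0361, so the probes of this gene did not agree.

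**Figure D3:**
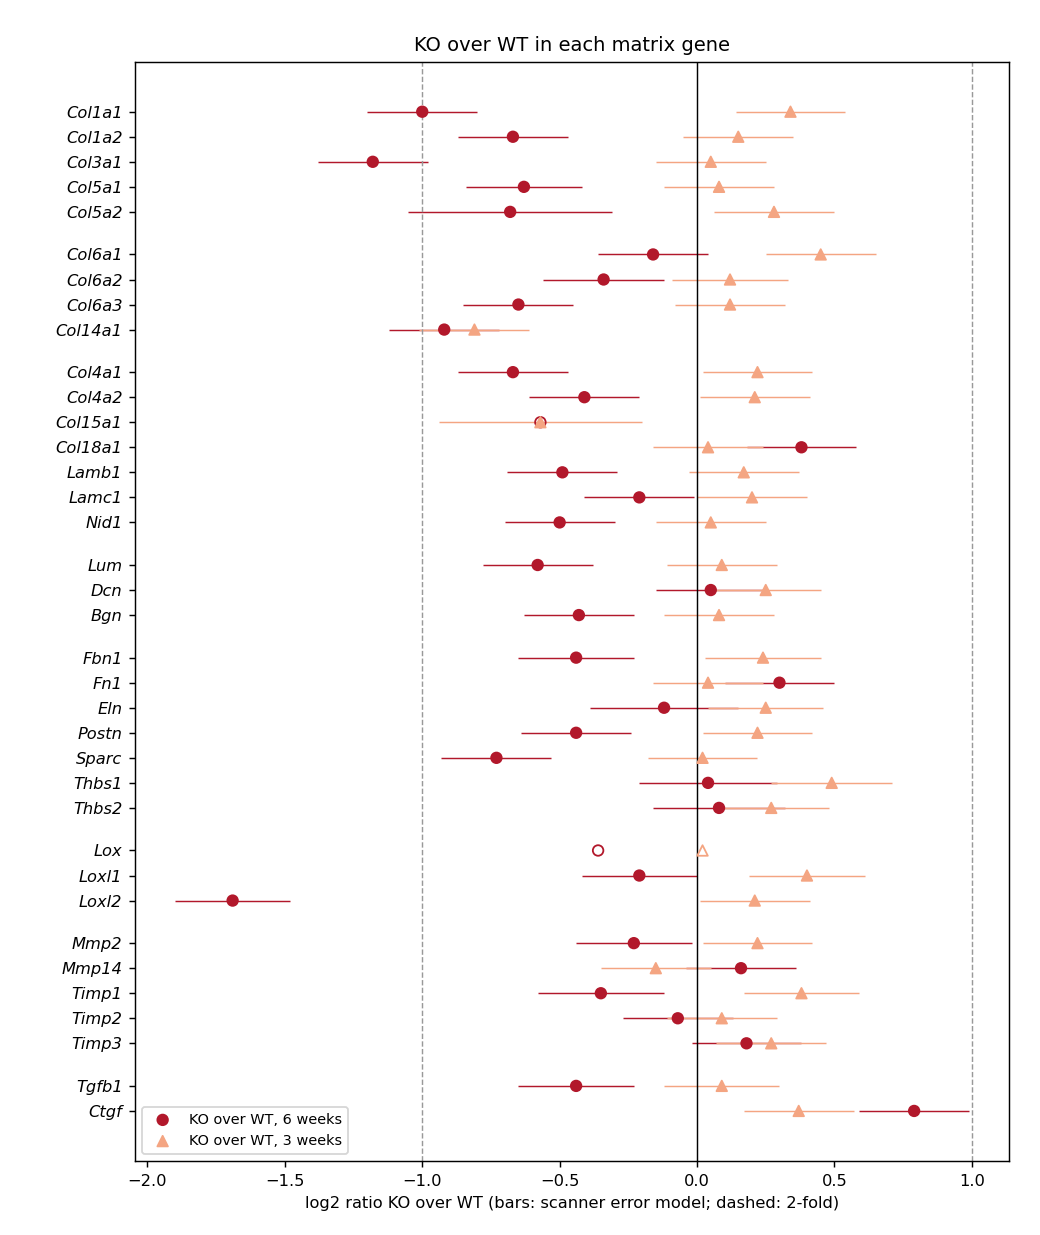
Log2 ratio of KO over WT for each of the 36 matrix genes at 6 weeks (circles) and 3 weeks (triangles), with bars for the error that the scanner's error model gives a ratio and hollow points for bounds; dashed lines mark 2-fold. At 6 weeks 28 genes lie below 0 and at 3 weeks 33 lie above 0, and Col14a1 and Ctgf keep their side at both ages.

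The small leucine-rich proteoglycans, which sit on collagen fibrils, were among the genes with the narrowest age ratios. Lum (lumican) had signals of 1.37 in KO and 2.05 in WT at 6 weeks and of 3.15 in KO and 2.96 in WT at 3 weeks, and was the only 1 of the 3 that was at least 2-fold lower with age in KO. Bgn (biglycan) had 0.494 in KO and 0.666 in WT at 6 weeks and 0.836 in KO and 0.79 in WT at 3 weeks. Dcn (decorin) had 46.2 in KO and 44.6 in WT at 6 weeks and 54.6 in KO and 46.0 in WT at 3 weeks. For Dcn all 4 arrays lay within a log2 ratio of 0.25 for genotype and -0.24 for age, close to the error model's 0.2. Dcn and Lum, neighbours on chromosome 10, thus differed in their age ratio in KO, at -0.24 and -1.20.

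The glycoproteins and the elastic fibre held the gene with the lowest age ratio in WT and also Fn1, whose age ratio was -0.06 in WT. Of 7 genes, 6 were at least 2-fold lower with age in KO and 3 in WT, and none was past 2-fold between the genotypes at either age. Eln, the elastin gene, had a signal of 0.0414 in KO and 0.0448 in WT at 6 weeks and of 0.214 in KO and 0.18 in WT at 3 weeks. It was 5.16-fold lower at 6 weeks in KO and 4.01-fold lower in WT, the lowest age ratio of the 36 genes in WT, while the 6-week arrays were within 1.08-fold of each other. In limma's fit, which takes the 2 genotypes as replicates of an age, Eln had a log2 ratio of -2.19 for age with a standard error of 0.184 and an adjusted p of 0.399.

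Fbn1, which encodes the fibrillin of the microfibrils around elastin, had 0.103 in KO and 0.139 in WT at 6 weeks and 0.327 in KO and 0.277 in WT at 3 weeks. Postn (periostin), a matrix protein of growing and injured connective tissue, had 0.372 in KO and 0.505 in WT at 6 weeks and 1.54 in KO and 1.32 in WT at 3 weeks. Both had a KO over WT ratio of -0.44 at 6 weeks and were lower at 6 weeks in both genotypes, by -1.67 and -2.05 in KO for Fbn1 and Postn. Sparc, a collagen-binding protein involved in fibril assembly, had 27.3 in KO and 45.3 in WT at 6 weeks and 80.5 in KO and 79.5 in WT at 3 weeks. Like Col3a1, Sparc differed by little between the genotypes at 3 weeks, with a ratio of 0.02, and was lower in KO at 6 weeks, with -0.73, and its other probe gave 0.10 and -0.59.

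The thrombospondins had the age ratio without the genotype ratio at 6 weeks. Thbs2 had signals of 0.0527 in KO and 0.0499 in WT at 6 weeks and of 0.14 in KO and 0.116 in WT at 3 weeks. Thbs1, whose protein can activate latent TGF-beta, had 0.0382 in KO and 0.0372 in WT at 6 weeks and 0.084 in KO and 0.0597 in WT at 3 weeks. Their KO over WT ratios at 6 weeks were 0.08 and 0.04, and Thbs1 had the highest ratio of the 36 genes at 3 weeks, 0.49. Fn1, fibronectin, which hepatocytes release into plasma, had 107 in KO and 87.1 in WT at 6 weeks and 93.3 in KO and 90.7 in WT at 3 weeks. Fn1 was highest in KO at 6 weeks, as was Col18a1, with a KO over WT ratio of 0.30. The Fn1 ratio was 0.05 under quantile normalization and 0.07 after normexp background correction.

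Among the cross-linking enzymes Loxl2 had the widest genotype ratio of the 36 genes, and its probes did not agree. Its brightest probe, at chr14:70095254-70095313 of mm9, had a signal of 0.135 in KO and 0.434 in WT at 6 weeks and of 1.07 in KO and 0.925 in WT at 3 weeks. That is 3.22-fold lower in KO at 6 weeks, with a log2 ratio of -1.69 and an error of 0.21, and 1.16-fold higher at 3 weeks. The probe at chr14:70092141-70092200 had 0.0615 in KO and 0.116 in WT at 6 weeks and 0.32 in KO and 0.278 in WT at 3 weeks, a ratio of -0.92 at 6 weeks. The probe at chr14:70090017-70090076 had 0.282 in KO and 0.284 in WT at 6 weeks and 0.613 in KO and 0.77 in WT at 3 weeks, a ratio of -0.01 at 6 weeks. In transcript coordinates the 3 probes start at bases 4792, 2293 and 2212 in the order given, so the probe with the lowest ratio lay nearest the 3′ end. With the mean of all probes in place of the brightest, the 6-week ratio of Loxl2 was -0.87 and it was no longer past 2-fold, which left Col1a1 and Col3a1. All 3 probes were lower at 6 weeks in both genotypes, between -1.12 and -2.99 in KO and between -1.09 and -1.44 in WT.

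**Figure D4:**
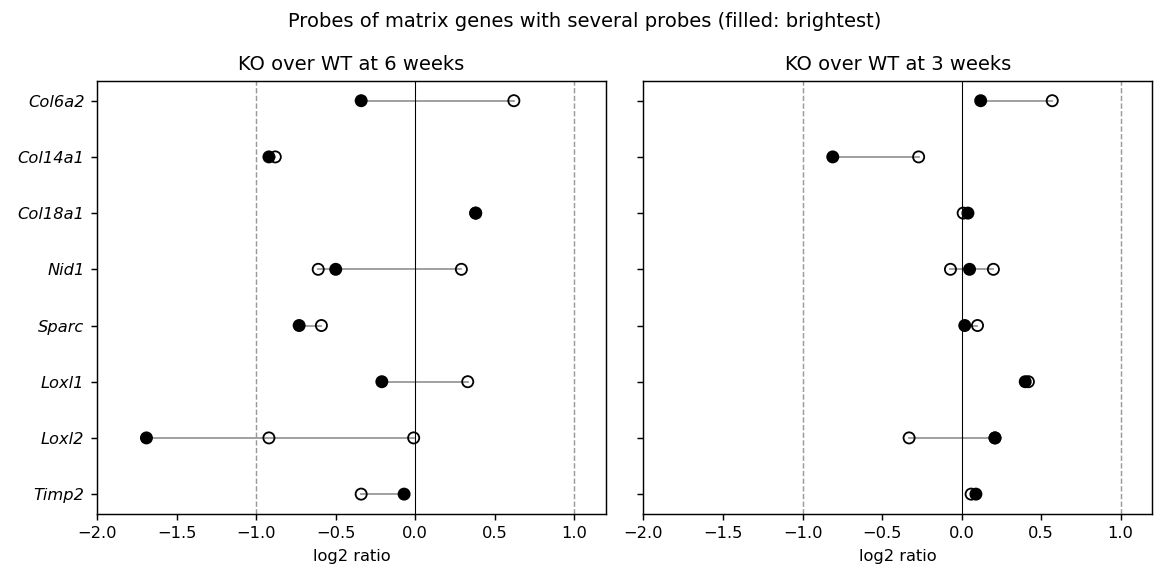
Log2 ratio of KO over WT at 6 weeks (left) and 3 weeks (right) for each probe of the 8 matrix genes with more than 1 probe measured on every array, filled for the brightest probe; dashed lines mark 2-fold. The 3 Loxl2 probes spread between -1.69 and -0.01 at 6 weeks, and the Col6a2, Nid1 and Loxl1 probes lie on both sides of 0 there.

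Loxl1, which cross-links elastin, had 0.132 in KO and 0.152 in WT at 6 weeks and 0.357 in KO and 0.27 in WT at 3 weeks. Its genotype ratio was -0.21 at 6 weeks and 0.40 at 3 weeks, and its other probe gave 0.33 and 0.42, so only the 3-week sign was shared. Lox, the founding lysyl oxidase, was not well above background in KO at 6 weeks, at 0.0112, or in WT at 3 weeks, at 0.00937, and stood at 0.0173 in WT at 6 weeks and 0.0154 in KO at 3 weeks. These signals bound its KO over WT ratio to at most -0.36 at 6 weeks and at least 0.02 at 3 weeks and show no more than that.

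Matrix proteases and their inhibitors were divided between genes with and without an age ratio. Mmp2, a gelatinase made by stellate cells, had a signal of 0.124 in KO and 0.145 in WT at 6 weeks and of 0.514 in KO and 0.44 in WT at 3 weeks. It was 4.15-fold lower at 6 weeks in KO and 3.04-fold lower in WT. Its membrane-bound activator Mmp14 had 0.403 in KO and 0.361 in WT at 6 weeks and 0.441 in KO and 0.49 in WT at 3 weeks, within 1.36-fold in every comparison. Mmp14 was the only 1 of the 34 genes with a KO over WT ratio above 0 at 6 weeks, 0.16, and below 0 at 3 weeks, -0.15, signs found for 26.3% of all genes.

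Timp1, the inducible inhibitor, had 0.0485 in KO and 0.0619 in WT at 6 weeks and 0.131 in KO and 0.1 in WT at 3 weeks, with an age ratio of -1.43 in KO and -0.70 in WT. Timp2, which also takes part in activating Mmp2, had 4.33 in KO and 4.54 in WT at 6 weeks and 5.39 in KO and 5.07 in WT at 3 weeks. Timp3, the inhibitor bound to matrix, had 2.25 in KO and 1.99 in WT at 6 weeks and 2.4 in KO and 1.99 in WT at 3 weeks. With these probes neither Timp2 nor Timp3 was beyond 1.25-fold in any comparison. A dimmer Timp2 probe had ratios of -0.34 for KO over WT at 6 weeks and -0.73 for 6 over 3 weeks in KO, so the Timp2 probes differed in size there.

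The growth factors differed from each other. Tgfb1, read by 10 spots per array, averaged 0.139 ± 0.0139 in KO and 0.188 ± 0.00326 in WT at 6 weeks and 0.234 ± 0.0112 in KO and 0.22 ± 0.00587 in WT at 3 weeks (SD over 10 spots). It had the order of the collagens on a smaller scale, with a KO over WT ratio of -0.44 at 6 weeks and 0.09 at 3 weeks. Ctgf, a TGF-beta and Hippo target now named Ccn2, had 3.16 in KO and 1.82 in WT at 6 weeks and 3.82 in KO and 2.97 in WT at 3 weeks. It was the gene with the highest KO over WT ratio of the 36 at 6 weeks, 0.79, and was 1.29-fold higher in KO at 3 weeks. Of the 34 genes, 7 genes had ratios above 0 at both ages, a pattern of 29.9% of all genes. These were Col18a1, Ctgf, Dcn, Fn1, Thbs1, Thbs2 and Timp3. At 6 weeks the ratios of Dcn, Thbs1, Thbs2 and Timp3 lay within their error. Under quantile normalization Dcn, Thbs1 and Thbs2 stood at -0.13, -0.06 and -0.03 at 6 weeks, and Fn1 at -0.03 at 3 weeks.

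limma was fitted over the 4 arrays with terms for age and genotype, which leaves 1 residual degree of freedom and counts any age by genotype difference as spread. At an adjusted p under 0.05 it called 0 of 22648 genes for age and 0 for genotype, so 0.0% in each direction, and the smallest adjusted p was 0.399 and 0.468. At an unadjusted p under 0.05, 21 of the 36 genes were lower at 6 weeks and 0 higher, where 5.61% of all genes were lower and 4.58% higher. For genotype 2 of 36, Col14a1 and Col15a1, were lower in KO and 0 higher, where 1.89% of all genes were lower and 2.56% higher. This count depended on the setting, with 1 lower and 1 higher of the genes tested under normexp, with a trend and with the filter on all 4 arrays, and 1 lower and 0 higher with the mean of all probes and without the filter. After Eln, the smallest age p-values among the 36 were those of Mmp2, with a log2 ratio of -1.83, a standard error of 0.201 and an adjusted p of 0.422, and Thbs2, with -1.31, 0.156 and 0.426.

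Other genes of the matrix, in 5 lists, had medians nearer to 0 than the 36 in the comparisons of 6 with 3 weeks. Beside their counts stand the shares of all genes past 2-fold, 6.26% lower and 6.54% higher with age in KO, 5.85% and 3.64% in WT, 4.54% and 6.49% for KO over WT at 6 weeks, and 3.06% and 2.86% at 3 weeks. Among 29 genes of collagen folding and processing, 6 were at least 2-fold lower in KO at 6 weeks and 0 higher, with a median of -0.35, and 1 was lower and 0 higher at 3 weeks, with a median of 0.04. The lowest at 6 weeks were Pcolce2, a procollagen processing enhancer, at -1.71, and P4ha1, a catalytic chain of prolyl 4-hydroxylase, at -1.64, and the highest P4ha3 at 1.0 and Bmp1 at 0.49. P4ha1 had a signal of 0.118 in KO and 0.368 in WT at 6 weeks and of 0.35 in KO and 0.334 in WT at 3 weeks, so the KO array at 6 weeks stood apart and WT did not differ with age. Serpinh1, the collagen chaperone, had 0.335 in KO and 0.768 in WT at 6 weeks and 1.29 in KO and 1.12 in WT at 3 weeks, the order of the collagens. With Fkbp10, another folding enzyme, it had the lowest age ratio of the list in KO, -1.95 for both. With age 11 of 28 genes compared were lower and 1 higher in KO, and 2 of 29 lower and 0 higher in WT, with medians of -0.69 and -0.34.

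Among 46 other glycoproteins and proteoglycans 44 could be compared at 6 weeks, with 2 lower and 1 higher in KO, and a median of -0.27. The lowest, Spon2, a secreted matrix protein, had 0.285 in KO and 2.39 in WT at 6 weeks and 0.974 in KO and 0.767 in WT at 3 weeks, and Nid2, the second nidogen, had a ratio of -1.52. Mfap5, a microfibril protein, was the highest in KO at both ages, at 2.26 and 2.19, and Matn4 followed at 0.91 at 6 weeks. With age 13 of 45 were lower and 1 higher in KO, and 4 of 44 lower and 1 higher in WT, with medians of -0.64 and -0.27, Mfap2 being the lowest in both, at -1.86 and -2.01. At 3 weeks 1 of 45 was higher in KO and 0 lower, with a median of 0.05.

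The 31 collagen chains outside the 36 differed from them, as 15 passed the background flag on every array and their medians were 0.12 at 6 weeks and 0.05 at 3 weeks for KO over WT, with 4 of 18 higher and 2 lower at 6 weeks and 1 of 23 higher and 1 lower at 3 weeks. Col4a3, a type IV chain best known from the kidney glomerulus, had 0.345 in KO and 0.0228 in WT at 6 weeks and 0.0159 in KO and 0.0474 in WT at 3 weeks, and its partner Col4a4 had 0.15 in KO and 0.0596 in WT at 6 weeks. The KO array at 6 weeks was thus the highest for both. Col5a3, another type V chain, had 0.889 in KO and 2.57 in WT at 6 weeks and 0.701 in KO and 0.837 in WT at 3 weeks, so its WT array was higher at 6 than at 3 weeks, unlike those of Col5a1 and Col5a2. With age 4 of 23 were lower and 2 higher in KO, and 3 of 20 lower and 2 higher in WT, with medians of -0.04 and -0.25.

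Of 33 other proteases and inhibitors, 25 could be compared at 6 weeks and 29 at 3 weeks, and 3 were higher in KO at each age, with 0 and 1 lower and medians of -0.06 and 0.08. With age 6 of 29 were lower and 3 higher in KO, and 4 of 23 lower and 1 higher in WT, with medians of -0.14 and -0.23. TGF-beta and PDGF signalling, 33 genes, had medians of -0.09 at 6 weeks and 0.01 at 3 weeks, with 2 of 29 lower and 1 higher at 6 weeks and 0 lower and 2 higher at 3 weeks. With age 1 of 29 was lower and 1 higher in KO, and 0 lower and 1 higher in WT, with medians of -0.22 and 0.08. Wisp1 and Cyr61, relatives of Ctgf, were its lowest genes at 6 weeks, at -1.17 and -1.14, opposite in sign to Ctgf.

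Cell type markers were read beside these results, and the part of any cell type in them was not tested. Among 16 stellate cell markers the summed signal was 25.3 in KO and 31.5 in WT at 6 weeks and 54.7 in KO and 54.9 in WT at 3 weeks. Their median KO over WT ratio was -0.29 at 6 weeks and 0.11 at 3 weeks. With age 6 of 16 were at least 2-fold lower in KO and 1 of 16 in WT, against 6.26% and 5.85% of all genes. The WT count is near that share. In either genotype 0 were higher, against 6.54% of all genes in KO and 3.64% in WT. Of the defining markers Reln and Lrat were lower in KO at 6 weeks, at -0.32 and -0.64, and Hand2 was higher, at 0.32. Desmin, which muscle also makes, was the marker of this list more than 2-fold higher in KO, by 2.35 on the log2 scale at 6 weeks and 1.99 at 3 weeks.

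The 11 portal fibroblast and smooth muscle markers had summed signals of 5.78 in KO and 5.73 in WT at 6 weeks and 7.02 in KO and 6.66 in WT at 3 weeks, with Tagln the largest part of each sum. Their median KO over WT ratio was 0.09 at 6 weeks and 0.16 at 3 weeks, and 1 marker was at least 2-fold higher in KO at each age and 0 lower. These were Gli1 at 6 weeks, by at least 1.5 on the log2 scale, a bound, and Pi16 at 3 weeks, at 1.66. The 16 sinusoidal endothelial markers summed to 57.5 in KO and 73.2 in WT at 6 weeks and to 69.3 in KO and 65.9 in WT at 3 weeks, with median KO over WT ratios of -0.41 and 0.07. The 12 Kupffer cell markers, which belong to a cell type that makes little of this matrix, were lower still in KO at 6 weeks, with a median of -0.82. At least 2-fold lower were 3 of these 12, against 4.54% of all genes. They summed to 49.3 in KO and 87.9 in WT at 6 weeks and to 90.6 in KO and 98.5 in WT at 3 weeks. In WT the endothelial and Kupffer lists had age medians of 0.07 and -0.05, where the 36 matrix genes had -0.86. The list for the mesothelium of the liver capsule was as low, at -0.87. Adipocyte markers had -0.53, stellate cell markers -0.32, portal markers -0.23, cholangiocyte markers -0.18 and hepatocyte markers -0.07. Tendon and muscle connective tissue markers had 0.08 and skeletal muscle markers 1.02.

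The remaining lists were dim or narrow. Cholangiocyte markers, 9 of 10 on the array, summed to 1.11 in KO and 1.28 in WT at 6 weeks and to 1.28 in KO and 1.32 in WT at 3 weeks, and adipocyte markers to 0.769 in KO and 0.745 in WT at 6 weeks and 1.02 in KO and 1.33 in WT at 3 weeks. The 7 markers of the mesothelium of the liver capsule summed to 0.612 in KO and 0.503 in WT at 6 weeks and 1.06 in KO and 1.0 in WT at 3 weeks, lower at 6 weeks in both genotypes as the matrix genes were. The 12 hepatocyte markers had median KO over WT ratios of 0.30 at 6 weeks and 0.03 at 3 weeks.

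Because muscle carries its own connective tissue, tendon and muscle connective tissue markers were read beside the KO arrays, which held the muscle transcripts described above. Their summed signal was 0.659 in KO and 0.554 in WT at 6 weeks and 0.782 in KO and 0.552 in WT at 3 weeks. At 6 weeks 3 of 6 compared were at least 2-fold higher in KO and 0 lower, against 6.49% and 4.54% of all genes. At 3 weeks 3 of 8 were higher and 0 lower, against 2.86% and 3.06%. Apart from Scx the higher ones were bounds, with WT not well above background. Of the defining markers Scx was higher in KO at both ages, at 1.07 and 1.39, Mkx stood at 0.33 and -0.37, and Tnmd was not well above background on any array. The muscle markers were higher in KO at both ages. The median KO over WT ratio of the 36 matrix genes was -0.42 at 6 weeks and 0.19 at 3 weeks. The part of muscle in the matrix ratios was not tested at either age.

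**Figure D5:**
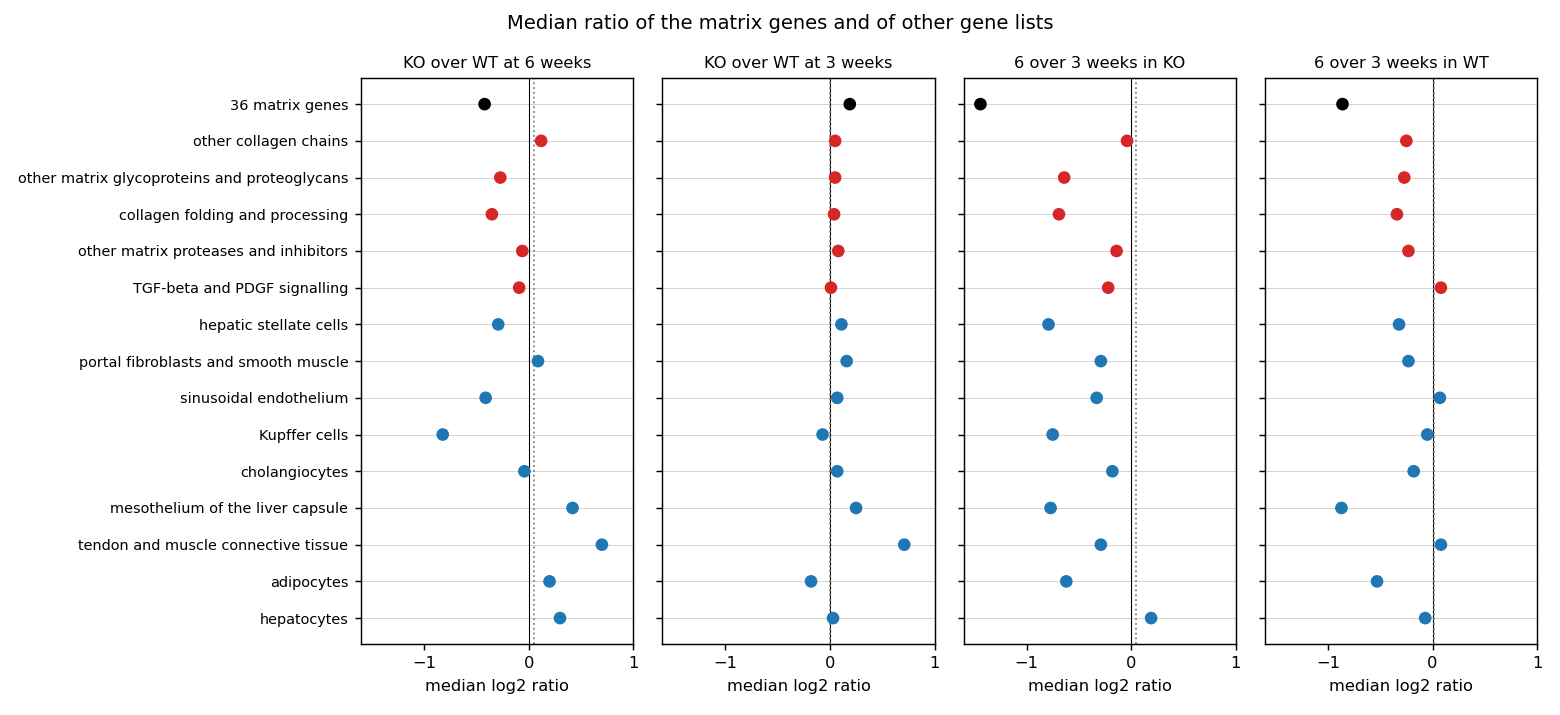
Median log2 ratio of the 36 matrix genes (black), of 5 lists of other matrix genes (red) and of 9 cell type marker lists (blue) in the 4 comparisons, with a dotted line at the median of all genes; skeletal muscle, at 4.7 and 5.86 for KO over WT at 6 and 3 weeks, is not drawn. The matrix genes have the lowest median of the lists drawn in the age comparison in KO, and Kupffer cells the lowest for KO over WT at 6 weeks.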

How the data were processed

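Gene expression was measured in 4 liver RNA pools, 1 per group, on one-colour (Cy3) Agilent mouse arrays. The submitters' processing notes name Agilent Feature Extraction (11.5.1.1) for the deposited intensity values, which the authors made with background subtraction and detrending within each array and no scaling between arrays, per the file headers. Other columns, per the file headers, hold 0 or 1 marks for spots that are well above background, saturated or outliers, as deposited. The authors' value table held that intensity over the array's 75th percentile, in linear scale, uncentred and in the same direction, with a ratio to that quotient of 0.999825 to 0.999979 and column medians of 0.08644 for KO and 0.08526 for WT at 6 weeks and 0.08957 for KO and 0.08778 for WT at 3 weeks.

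Each processed intensity was divided by its array's 75th percentile, taken over the 43020 spots that are not controls, and put on the log2 scale. Outlier spots, between 189 and 252 per array, were left out, no spot was saturated, and between 28714 and 30697 spots per array were well above background. Repeated spots were averaged. RefSeq tables named 27508 of the 39429 probes by accession, 3544 by symbol and 404 by synonym, while 7973 kept the name in the file. The brightest probe on average stood for a gene with several. Pairs of arrays were compared for genes well above background on 1 or both. With 1, the ratio is a bound, in which the dim array takes either its lowest signal well above background or the gene's own signal, whichever is higher. Genes that share sequence with relatives can cross-hybridise.

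With 1 array per group no single comparison has a test, so genes were counted at 2-fold, beside the same share of all genes. The error model's errors leave out differences between pools, and so does an SD of a log2 ratio estimated from the 10 spots of 274 repeated probes. For each array the median over probes of the SD between spots was taken, and those of the 2 arrays were combined as independent errors. The estimate was 0.1257 for KO over WT at 6 weeks and 0.0962 at 3 weeks. A model with age and genotype was fitted to the 4 arrays in limma 3.58.1 (R 4.3.3), with Benjamini-Hochberg adjustment over all genes. Its p-values set a ratio against the residual spread between these arrays, partly borrowed across genes, and not against the spread between animals. Other steps used Python 3.11.15, numpy 2.4.6 and pandas 2.3.3, and the steps were tested on simulated data. Promoter windows came from RefSeq tables of GRCm38.p6, and 14 of the 36 genes had none there. Probe positions are those of mm9, as in the files.

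The 36 genes and the lists were chosen with earlier results of these data known. All 36 were named. Genes named from the matrix lists were among the 2 highest and 2 lowest of a comparison. Not all such genes were named, and none of the protease list was. The first 3 markers were named only for the stellate cell list and the tendon and muscle connective tissue list. The ratios of Desmin, Gli1 and Pi16, the naming of Tagln and the signals given beside some ratios of list genes were added after their values were seen. Of the protease list, 1 gene is not reported here. Alternatives were median scaling, quantile normalization, the same after normexp background correction (offset 50), the mean of all probes, a filter on all 4 arrays, no filter, outlier spots kept, the authors' value table, a 1.5-fold threshold, and limma with a trend or without the other term.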

Additional observations from a re-analysis of the deposited data

Results flagged for a closer look

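Col1a1, Col3a1 and Loxl2 had a KO over WT ratio at 6 weeks that was at least 2-fold below their own ratio at 3 weeks. The difference between the ages was -1.35 on the log2 scale for Col1a1, -1.23 for Col3a1 and -1.9 for Loxl2. With the probe used for each, the KO array was below WT at 6 weeks and above it at 3 weeks. The 3-week ratio of Col3a1, 0.05, lay within its error of 0.2. For the 36 genes as a group the median KO over WT ratio was -0.42 at 6 weeks and 0.19 at 3 weeks, on opposite sides of 0. None of these differences between the ages was tested, since each group had 1 array, and 3.46% of 18871 genes were as far below at 6 weeks. The Loxl2 value rests on its brightest probe. Of its other probes, 1 gave -0.92 at 6 weeks and 0.21 at 3 weeks. The last gave -0.01 at 6 weeks and -0.33 at 3 weeks, so its ratio was not lower at 6 weeks.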

How the results depend on the processing

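No value of the 36 genes past 2-fold changed its direction under any alternative. With normexp and quantile normalization the median log2 ratio of the genes was -0.25 for KO over WT at 6 weeks, -0.72 for 6 over 3 weeks in WT and -1.16 in KO, and with the mean of all probes the last was -1.28. At a 1.5-fold threshold 1 gene was higher and 10 were lower in KO at 6 weeks, where 12.4% and 10.4% of all genes were, 1 was lower at 3 weeks, and 23 were lower at 6 weeks in WT. The 2-fold count at 6 weeks was 2 in place of 3 with normexp and with quantile normalization, where Col1a1 stood at -0.92 and -0.98, and with the mean of all probes, where Loxl2 stood at -0.87. Single ratios moved by more than the SD estimated from repeated spots in 46 of 144 cases with normexp, 23 with the mean of probes, 10 with quantile normalization and 4 without the filter. Over all genes at 3 weeks normexp gave 306 higher and 213 lower in KO, 59.0% of calls higher, against 48.3% in the values reported. Without the filter the median of all genes was 0.14 for KO over WT at 6 weeks and 0.15 for 6 over 3 weeks in KO. limma called 0 of the 36 genes under every alternative, and 4 genes elsewhere, all higher in KO, with a trend. Causes were not tested. The number of arrays limits every value.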
